A study of Mus musculus with 8 samples.

Results

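Genes that direct the formation of skeletal muscle were measured in 8 hind limb undifferentiated pleomorphic sarcomas (UPS) of mice. The 9 genes are Pax3 and Pax7, the 4 myogenic regulatory factors Myf5, Myod1, Myog and Myf6, their cofactor Mef2c, the fusion gene Mymk and the acetylcholine receptor gene Chrna1. They were chosen by symbol among the 26667 genes of the count table, and all 9 were found, Mymk under its older symbol Tmem8c. KP and KPH2 tumours shared their tumour-driving alleles, Trp53 fl/fl among them, and KPH2 tumours carried Epas1 fl/fl in addition, so that Cre also deletes Epas1, the gene for HIF-2α (the labels give KPH2 tumours as Epas1 -/- and KP tumours as wild type). Both strains were on a mixed 129/C57BL/6 background, were of both sexes and at least 8 weeks old, and received adenoviral Cre in the hind limb muscle. The animals were killed 7 weeks later or at the largest tumour size permitted. The Cre was not restricted to 1 cell type, and muscle next to the tumour can enter a section. Each group had 4 tumours (KP 5 to KP 8 and KPH2 1 to KPH2 4), with 1 library from each.

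In the muscle lineage, Pax3 and Pax7 mark the progenitors, and Pax7 marks the quiescent satellite cells that repair adult muscle. Myf5 and Myod1 commit cells to the lineage, Myog drives terminal differentiation of the committed myoblasts, and Myf6 is the factor that adult fibres keep on. All 4 factors bind the E-box as partners of the E proteins, Mef2c acts beside them on muscle promoters, and Mymk (myomaker) lets myoblasts fuse into fibres. Adult muscle restricts the acetylcholine receptor to the neuromuscular junction, whereas regenerating and denervated muscle make it along the whole fibre.

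Total counts ran from 6463221 to 13155510 per tumour, and 3 counts, taken as the floor, corresponded to 0.223 to 0.445 CPM. CPM is the count of a gene per 1000000 counts of its library, here after TMM scaling for library composition. Epas1 lay between 59.2 and 86.9 CPM in the KP tumours and between 32.6 and 53.4 CPM in the KPH2 tumours, with no overlap (log2 fold change −0.81 ± 0.19 SE, edgeR adjusted p = 0.0742). KPH2 1 is absent from the 7-tumour table of normalized values. The paper's methods left out 1 knockout tumour, unnamed, as a technical outlier in a principal component analysis of the counts. The comparison therefore used KP 5 to KP 8 and KPH2 2 to KPH2 4, with KPH2 1 given apart and the main tests repeated with it. The 35 genes of mature muscle fibres described below summed to less in KPH2 1 (1580 CPM) than in any other tumour, KP 7 being next (2020 CPM). Results over 7 tumours thus leave out the KPH2 tumour with the lowest sum of these genes. Nothing in the sources says whether tumours shared a litter or a day, so p-values measure the spread between these tumours. In a bulk section, fewer cells of a type and less RNA per cell cannot be told apart.

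The 4 myogenic regulatory factors and Mymk were each higher in KPH2 2, KPH2 3 and KPH2 4 than in every KP tumour. Of the 9 genes, 7 passed the filter on low counts and were tested among 14867. Myf5, Myod1 and Mymk reached the cutoff of 0.993 CPM in 1 KP tumour each, so that they passed through the KPH2 tumours where they are high, and counts over the 7 genes are a description. Myf5 and Myf6 rose past an adjusted p of 0.05 by edgeR's quasi-likelihood test (2 of 7), where 1.24% of all genes tested passed in that direction and 1.96% in either. Leaving out KP 7 or KPH2 2 took the number that passed to 0, and leaving out KP 6 took it to 3. Groups did not overlap for 5 of the 7 genes, against 8.67% of all genes in that direction. With KPH2 1 included, 0 of the 7 genes passed by edgeR, with 0.00675% of all genes past the threshold. At an unadjusted p under 0.05 the numbers were 6 of 7 over 7 tumours, against 8.5% of all genes in that direction, and 5 of 7 over 8 tumours, against 6.65%. By DESeq2, 4 of 7 passed over 7 tumours (4.02% of all genes in that direction), namely Myf5, Myod1, Myog and Myf6, and 1 of 7, Myf6, over 8 tumours (1.57%).

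**Figure D1:**
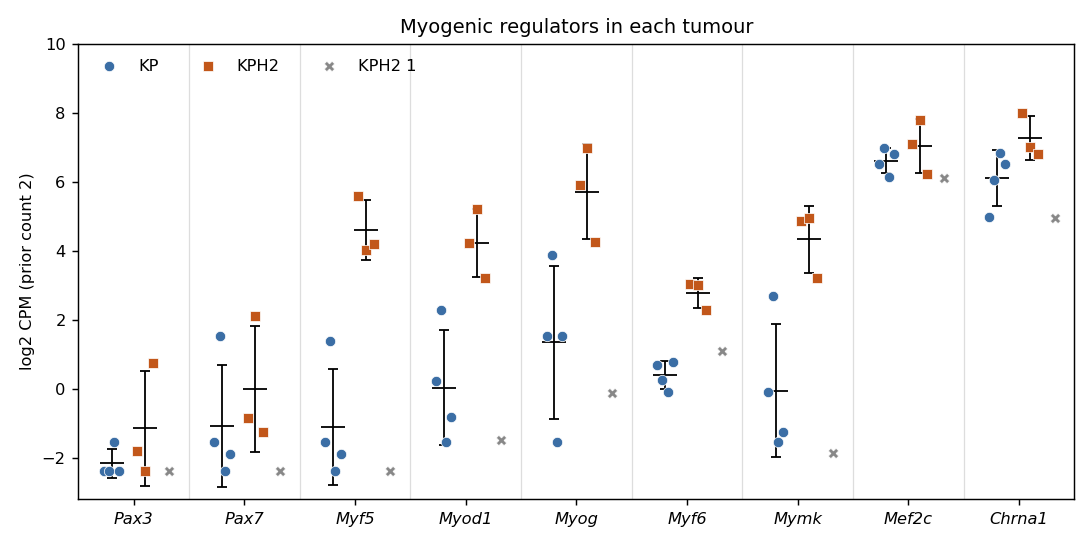
Level of each of the 9 genes in each tumour, as log2 CPM with a prior count of 2 (vertical axis), with KP tumours as circles, KPH2 2 to KPH2 4 as squares and KPH2 1 as crosses. Horizontal bars give group means and whiskers 1 SD (n = 4 KP and n = 3 KPH2), and the squares lie above all circles for Myf5, Myod1, Myog, Myf6 and Mymk.

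Myf5, the earliest of the 4 factors in the lineage, was nearly absent from KP tumours. Its counts were 2, 17, 0 and 1 in KP 5, 6, 7 and 8, against 532, 159 and 163 in KPH2 2, 3 and 4, and 0 in KPH2 1. KP 6 was the single KP tumour above the floor of 3 counts, at 2.41 CPM, and the lowest of the 3 KPH2 tumours was KPH2 3 at 15.9 CPM. KP tumours averaged 0.657 ± 1.17 CPM (SD, n = 4), and KPH2 2 to 4 averaged 27.4 ± 17.8 CPM (SD, n = 3). Myf5 rose by a log2 fold change of 5.59 (SE 1.04, edgeR adjusted p = 0.0418), a fitted value that rests on KP tumours at or under the floor apart from KP 6. Without the filter on low counts the adjusted p was 0.0866, and Myf5 no longer passed. Adding KPH2 1, with no Myf5 count, gave 5.14 (SE 1.62, adjusted p = 0.22). The adjusted p stayed under 0.05 when KP 6 was left out (0.0214) and lay between 0.0659 and 0.144 when KP 5, KP 7, KP 8, KPH2 2, KPH2 3 or KPH2 4 was.

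Myf6 (Mrf4) lies beside Myf5 on chromosome 10, on the same strand, with 5920 bases between the genes. It was the most even of the 4 factors within groups. KP 5, 6, 7 and 8 held 1.41, 0.99, 0.741 and 1.51 CPM, and KPH2 2, 3 and 4 held 8.01, 7.91 and 4.62 CPM. KPH2 1, at 1.92 CPM, lay above each KP tumour and below the other KPH2 tumours, so that Myf6 was the 1 gene of the 7 whose groups did not overlap over all 8 tumours (3.76% of all genes in that direction). Its log2 fold change was 2.51 (SE 0.36, adjusted p = 0.0212) over 7 tumours and 2.22 (SE 0.49, adjusted p = 0.127) over 8. Leaving out KP 6, KP 7 or KPH2 2 moved the adjusted p to 0.0512, 0.0516 and 0.0741.

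Myod1, which can turn fibroblasts into muscle, showed the same split with a wider spread. The KP tumours 5, 6, 7 and 8 gave 13, 33, 1 and 5 counts, or 0.965, 4.67, 0.148 and 0.377 CPM. KPH2 2, 3 and 4 gave 18.6, 36.8 and 9.13 CPM, and KPH2 1 gave 2 counts, under the floor. The lowest of the 3 KPH2 values, in KPH2 4, was above the highest KP value, in KP 6. Over 7 tumours the log2 fold change was 3.88 (SE 0.92, edgeR adjusted p = 0.0774, unadjusted p = 0.00294), and without KP 6 it was 5.28 (adjusted p = 0.0416). KP 6 was the 1 KP tumour at the filter cutoff, so that fit holds only KP tumours below it. With any other tumour left out the edgeR adjusted p lay between 0.107 and 0.191, and without the filter it was 0.149. DESeq2 gave an adjusted p of 0.0168.

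Myog (myogenin), the differentiation factor, had its highest level in KPH2 3 and its lowest in KP 7. It stood at 2.67, 14.4, 0.148 and 2.72 CPM in KP 5, 6, 7 and 8, against 60.5, 126 and 18.7 CPM in KPH2 2, 3 and 4. KPH2 1 had 0.719 CPM, inside the KP range. The gap between the groups was narrow, from KP 6 to KPH2 4, and the log2 fold change of 3.82 (SE 1.01) did not pass (edgeR adjusted p = 0.105, unadjusted p = 0.00537, DESeq2 adjusted p = 0.0429).

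Mymk, the fusion gene, followed Myod1 most closely. Its levels were 0.743, 6.22, 0.148 and 0.226 CPM in KP 5, 6, 7 and 8 and 28.6, 30.4 and 9.13 CPM in KPH2 2, 3 and 4. A single count was found in KPH2 1. KP 6 again came nearest to the KPH2 tumours, and the log2 fold change of 3.73 (SE 1.05, edgeR adjusted p = 0.12) became 5.77 (adjusted p = 0.0329) without it. Here too KP 6 was the 1 KP tumour at the filter cutoff. With any other tumour left out the edgeR adjusted p lay between 0.165 and 0.273, and without the filter it was 0.222. Mymx (myomixer), the partner of Mymk in fusion, singled out after its values were seen, stood at 1.13 CPM or less in the KP tumours, at 4.05, 8.01 and 0.676 CPM in KPH2 2, 3 and 4, and at 0 counts in KPH2 1 (log2 fold change 3.68, edgeR adjusted p = 0.128). Over all 8 tumours Mymx was not tested.

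The progenitor genes gave almost no signal. Pax7 had 2, 19, 0 and 1 counts in KP 5, 6, 7 and 8 and 4, 41 and 2 counts in KPH2 2, 3 and 4. No Pax7 count was found in KPH2 1, and KP 6 and KPH2 3, at 2.69 and 4.10 CPM, were the tumours with more than a few reads. Pax3 had 13 counts in KPH2 4, 1 each in KP 7 and KPH2 2, and 0 in the other 5 tumours. Neither gene passed the filter on low counts, and without that filter the adjusted p from edgeR was 0.736 for Pax7 and 0.312 for Pax3. A difference in either gene was not detectable at this depth. The tumour with the most Myf5 counts, KPH2 2, had 4 Pax7 counts.

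Mef2c and Chrna1 were abundant in every tumour, KP included, and their groups overlapped. Mef2c, which endothelial and myeloid cells also express, ran from 70.7 to 126 CPM in KP tumours, stood at 138, 219 and 75.1 CPM in KPH2 2, 3 and 4, and at 68.6 CPM in KPH2 1. Its log2 fold change was 0.53 (SE 0.35, adjusted p = 0.482). The 10 endothelial genes summed to 360 to 661 CPM in KP, 355 to 360 CPM in KPH2 2 to 4 and 263 CPM in KPH2 1. The 10 macrophage genes summed to 2420 to 4440, 1770 to 2660 and 2300 CPM in the same order, with no gene of either list at 0. The part of these cells in the Mef2c level was not tested.

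Levels of different genes were compared as CPM per kilobase of exon. In KP tumours the order of the means was Mef2c (31.5 ± 7.6 CPM per kb, SD, n = 4), Chrna1 (17.4 ± 8.15), Myog (3.33 ± 4.27), Mymk (1.22 ± 1.95), Myf6 (0.923 ± 0.286), Myod1 (0.828 ± 1.14), Myf5 (0.316 ± 0.561), Pax7 (0.124 ± 0.224) and Pax3 (0.00958 ± 0.0192). From Myog downwards, neighbours in this order differed by less than the larger of their SDs. In KPH2 2 to 4 the order was Myog (45.6 ± 36.0 CPM per kb, SD, n = 3), Mef2c (45.5 ± 22.8), Chrna1 (37.6 ± 17.5), Mymk (15.0 ± 7.82), Myf5 (13.2 ± 8.55), Myod1 (11.6 ± 7.57), Myf6 (5.43 ± 1.53), Pax7 (0.267 ± 0.376) and Pax3 (0.134 ± 0.212). The first 3 could not be told apart by their spread, nor could Mymk, Myf5 and Myod1. Myf6 differed from Myf5 and from Myod1 by less than the SD of each. Myog thus held the third place in KP tumours and was level with Mef2c in KPH2 2 to 4. The mean of Myf5 was below that of Myf6 in KP tumours and above it in KPH2 2 to 4, there by less than the SD of Myf5.

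The make-up of the factor counts differed between the tumours. Myf5 held 35.5% of the 1500 counts of the 4 factors in KPH2 2 (95% Wilson interval 33.1 to 37.9) and 36.1% of 451 in KPH2 4 (31.8 to 40.7). In KPH2 3, which had the most factor counts (1864), Myf5 held 8.53% (7.35 to 9.88) and Myog 67.5% (65.3 to 69.6). The intervals of both genes in KPH2 3 lay apart from those in KPH2 2 and KPH2 4. They overlapped those in KP 6, where Myf5 held 10.7% of 159 counts (6.78 to 16.5) and Myog 64.2% (56.4 to 71.2), and those in KP 8, where Myf5 held 1.61% of 62 (0.285 to 8.59) and Myog 58.1% (45.7 to 69.5). In KP 5 the interval of Myf5 overlapped as well (2.86% of 70, 0.787 to 9.83) and that of Myog did not (51.4%, 40.0 to 62.8). Myf6 held 27.1% of 70 counts in KP 5 (18.1 to 38.5), 32.3% of 62 in KP 8 (22.0 to 44.6), 68.6% of 35 counts in KPH2 1 (52.0 to 81.4) and 4.24% to 9.09% in KPH2 2 to 4. KP 6, at 4.4% of 159 (2.15 to 8.81), lay with KPH2 2 to 4. KP 7 had 7 factor counts in all, of which 5 were Myf6, and Myf5 was at 0 of 7 there and 0 of 35 in KPH2 1, with upper bounds of 35.4% and 9.89%. These intervals cover counting error only.

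**Figure D2:**
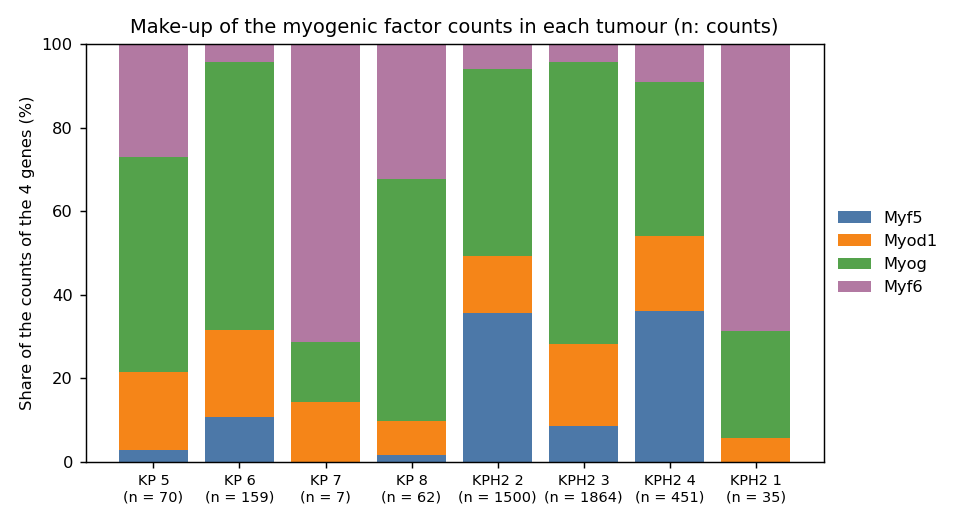
Share of the summed counts of Myf5, Myod1, Myog and Myf6 held by each gene (vertical axis, %) in each tumour, with the number of counts under each bar. Myf5 makes up 35.5% and 36.1% of the bar in KPH2 2 and KPH2 4, 8.53% in KPH2 3, and is missing from KP 7 and KPH2 1.

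The factors were set beside 35 genes of mature muscle fibres (Acta1, Ckm, Myh4, Ttn and others), whose RNA a section can contain with adjacent muscle. None of the 35 genes was at 0 in any tumour. They summed to 2020 to 3630 CPM in KP tumours, 4470 to 20500 CPM in KPH2 2 to 4 and 1580 CPM in KPH2 1, and 35 of 35 had a positive log2 fold change (median 2.12, against −0.02 over all genes tested). By edgeR 2 passed, where 1.24% of all genes rose (Eno3, an enolase of muscle, 2.98, adjusted p = 0.00922, and Neb, the giant protein of the thin filament, 2.23, adjusted p = 0.043). By DESeq2 26 of 35 passed, against 4.02% of all genes in that direction. Without KPH2 4, 15 passed by edgeR, among 153 genes in all. Without KP 6 the number was 2, and without KP 5, KP 7, KP 8, KPH2 2 or KPH2 3 it was 1. Over all 8 tumours 0 passed by edgeR, 20 had an unadjusted p under 0.05 and 5 passed by DESeq2, against 6.65% and 1.57% of all genes in that direction. In summed level the fibre genes were thus also higher in KPH2 2 to 4 than in each KP tumour, and their mean log2 CPM, the fibre score, was compared tumour by tumour with the summed CPM of the 4 factors. KP 5 and KP 8 had fibre scores of 4.22 and 4.28 and factor sums of 5.2 and 4.68 CPM, whereas KPH2 4, at a fibre score of 4.52, had a factor sum of 50.8 CPM. KP 6 had a fibre score of 3.26, close to 3.18 in KP 7 and 3.11 in KPH2 1, but its factor sum was 22.5 CPM beside 1.04 and 2.8 CPM. KPH2 2 and KPH2 3 were the highest on both axes, at 6.16 with 135 CPM and 6.87 with 187 CPM.

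As a percentage of the summed counts of the fibre genes, the factor counts were 1.04%, 0.91% and 1.14% in KPH2 2, 3 and 4 and 0.935% in KP 6. The other tumours had 0.148%, 0.0513% and 0.129% (KP 5, 7 and 8) and 0.177% (KPH2 1). KP 6 therefore lay within the range of KPH2 2 to 4 on this ratio, and KPH2 1 lay near KP 5 and KP 8.

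**Figure D3:**
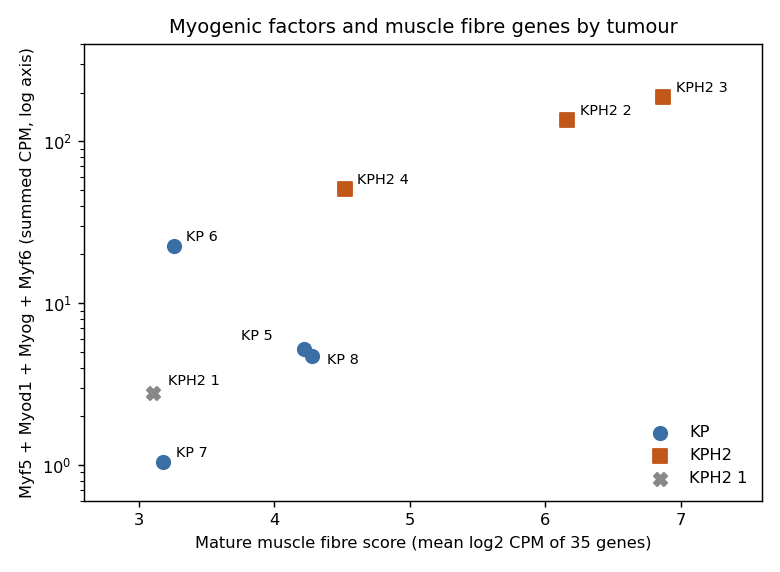
Summed CPM of Myf5, Myod1, Myog and Myf6 (vertical log axis) against the mean log2 CPM of 35 mature muscle fibre genes (horizontal axis), with 1 point per tumour. KPH2 4, KP 5 and KP 8 have similar fibre scores (4.52, 4.22 and 4.28) and factor sums of 50.8, 5.2 and 4.68 CPM, and KP 6 lies above KP 7 and KPH2 1 at a similar fibre score.

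With the fibre score as a covariate over the 7 tumours, 0 of the 7 genes passed (0.0202% of all genes, 3 genes, passed), and 2 had an unadjusted p under 0.05, with 3.3% of all genes in that direction. Standard errors widened, and Myf5 had a log2 fold change of 6.36 (SE 1.81, adjusted p = 0.468), Myod1 2.94 (SE 1.73), Myog 2.10 (SE 1.98), Mymk 3.44 (SE 2.23) and Myf6 1.6 (SE 0.47, adjusted p = 0.468). Over all 8 tumours the same fit gave 3.34 (SE 2.1) for Myf5, 1.30 (SE 0.32) for Myf6, 0.77 (SE 1.6) for Myod1, 0.61 (SE 1.98) for Mymk and 0.04 (SE 1.65) for Myog, and 0 of 7 genes and 0% of all genes passed by edgeR. At an unadjusted p under 0.05 the number was 1 of 7, Myf6, against 4.72% of all genes in that direction. The sign of Mef2c turned in both fits (−0.65 and −0.41), and that of Chrna1 in the second (−0.19). The estimates adjusted for fibre genes therefore depended on whether KPH2 1 was counted for Myf5, Myod1, Myog, Mymk and Chrna1.

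**Figure D4:**
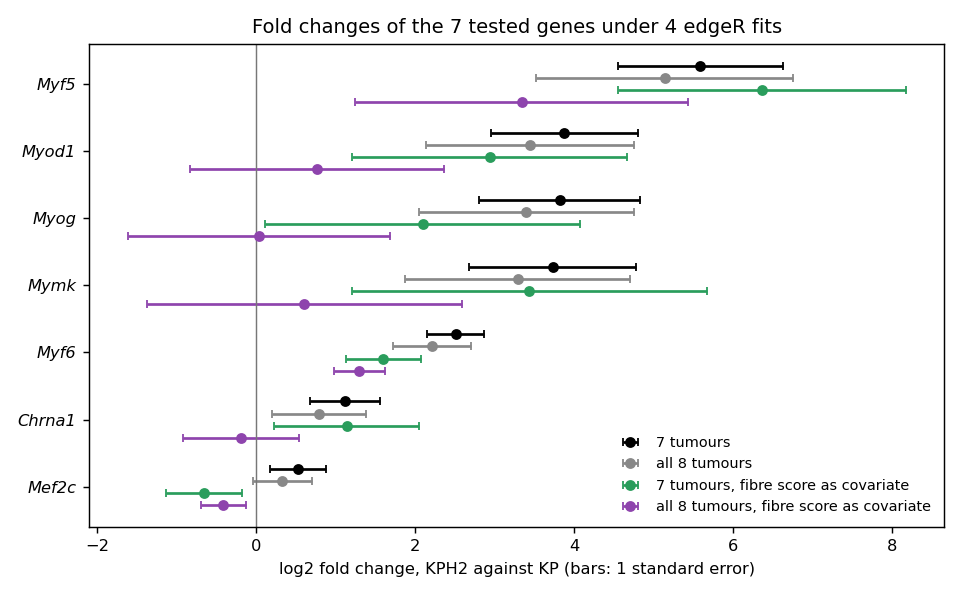
Log2 fold change between KPH2 and KP tumours (horizontal axis, bars 1 standard error) for the 7 genes tested, in edgeR fits over 7 or all 8 tumours with and without the fibre score as a covariate. Myf5 and Myf6 stay to the right of 0 by more than 1 standard error in all 4 fits, and Myog runs from 3.82 to 0.04.

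The muscle acetylcholine receptor is built from the α subunit Chrna1 with Chrnb1, Chrnd and either Chrng, in fetal and denervated muscle, or Chrne, in adult muscle. Chrna1 was found at 31.3, 66.5, 115 and 92.4 CPM in KP 5, 6, 7 and 8, 253, 129 and 113 CPM in KPH2 2, 3 and 4, and 30.6 CPM in KPH2 1. KP 7 overlapped the KPH2 tumours (log2 fold change 1.12, SE 0.44, edgeR adjusted p = 0.241). In KP 7, Chrnd and Chrng were each at 0.148 CPM, a single count, while Chrnb1 was at 20.6 CPM. Chrng stood at 0.371, 3.68, 0.148 and 0.302 CPM in KP 5, 6, 7 and 8, against 22.4, 22.3 and 6.87 CPM in KPH2 2, 3 and 4, with 0.32 CPM in KPH2 1 (log2 fold change 4.05, SE 0.94, adjusted p = 0.0741). Chrne, the adult subunit, stayed between 0.377 and 0.965 CPM in all 8 tumours and did not pass the filter. Its gene overlaps 4930544D05Rik on the opposite strand, and the strand setting of the counting is not given in the sources used here.

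The means of Chrnb1 and Chrnd were also higher in KPH2 2 to 4, without passing the threshold by edgeR. Chrnb1 ran from 6.46 to 25.0 CPM in KP and from 52.1 to 78.5 CPM in KPH2 2 to 4, with 14.5 CPM in KPH2 1 (log2 fold change 2.13, SE 0.44, edgeR adjusted p = 0.0545), and it passed by DESeq2 over 7 tumours (adjusted p = 7.9e-05) and over 8 (0.0273). Chrnd ran from 0.148 to 8.49 CPM in KP and from 8.11 to 60.4 CPM in KPH2 2 to 4, with KP 6 just above KPH2 4 (3.67, SE 1.18, adjusted p = 0.159). Per kilobase of exon, the mean levels in KPH2 2 to 4 were 37.6 for Chrna1, 31.4 for Chrnb1, 9.95 for Chrnd, 6.19 for Chrng and 0.397 CPM for Chrne. In KP tumours Chrng and Chrne were close, at 0.405 ± 0.613 and 0.348 ± 0.174 CPM per kb (SD, n = 4). Of the 14 tested genes of the receptor and the neuromuscular junction, 12 had a positive log2 fold change (median 2.28) and 2 rose by edgeR, where 1.24% of all genes did, namely Rapsn, which clusters the receptor (2.14, adjusted p = 0.0303), and Ache, the acetylcholinesterase (2.75, adjusted p = 0.049). Without KP 7, KPH2 2, KPH2 3 or KPH2 4 the number was 0. DESeq2 called 8 of the 14 over 7 tumours (against 4.02% of all genes in that direction). Over all 8 tumours the number was 0 by edgeR, with 7 at an unadjusted p under 0.05 (6.65%), and 2 by DESeq2 (1.57%). With the fibre score as a covariate it was 0 by edgeR over 7 tumours (median 1.68, 4 at an unadjusted p under 0.05, against 3.3% of all genes) and over 8 (median 0.52, 0 at an unadjusted p under 0.05).

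**Figure D5:**
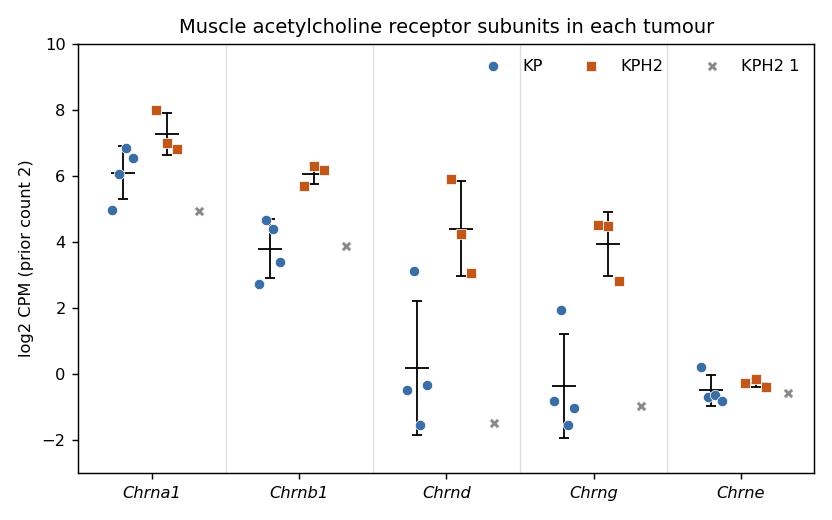
Level of the 5 muscle acetylcholine receptor subunits in each tumour, as log2 CPM with a prior count of 2 (vertical axis), with KP tumours as circles, KPH2 2 to KPH2 4 as squares and KPH2 1 as crosses. Bars give group means and whiskers 1 SD (n = 4 and n = 3), and the KPH2 squares lie above the KP circles for Chrnb1 and Chrng, while the Chrne points of all tumours overlap.

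Promoters are shown for Myog, Myf5, Chrna1 and Chrng, chosen after their E-boxes were counted, as windows with and without the motif. RefSeq promoters of GRCm38.p6 (250 bases before to 50 bases after the start, 300 bases) were at hand for 5 of the 9 genes, and those of Myod1, Myf6, Mymk and Pax3 were not in the table. Below, capitals mark CANNTG, the E-box, which reads as the same pattern on both strands and includes CAGCTG.
Myog: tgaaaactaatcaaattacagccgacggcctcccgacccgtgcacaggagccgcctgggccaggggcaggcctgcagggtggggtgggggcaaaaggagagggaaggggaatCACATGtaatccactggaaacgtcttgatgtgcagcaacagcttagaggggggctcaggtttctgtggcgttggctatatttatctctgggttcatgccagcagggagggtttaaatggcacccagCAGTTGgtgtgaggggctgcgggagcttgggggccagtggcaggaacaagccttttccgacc
Chrna1: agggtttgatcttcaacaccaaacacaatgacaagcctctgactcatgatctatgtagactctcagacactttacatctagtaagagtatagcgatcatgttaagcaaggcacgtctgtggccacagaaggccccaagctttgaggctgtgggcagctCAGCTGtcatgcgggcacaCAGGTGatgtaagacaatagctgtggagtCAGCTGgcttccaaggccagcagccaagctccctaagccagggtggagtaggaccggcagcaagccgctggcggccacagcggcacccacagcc
Chrng: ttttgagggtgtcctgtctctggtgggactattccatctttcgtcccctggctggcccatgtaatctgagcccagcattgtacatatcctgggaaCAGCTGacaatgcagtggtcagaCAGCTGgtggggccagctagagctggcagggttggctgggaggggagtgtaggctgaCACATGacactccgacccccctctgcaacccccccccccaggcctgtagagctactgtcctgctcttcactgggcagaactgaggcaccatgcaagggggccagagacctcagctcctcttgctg
Myf5: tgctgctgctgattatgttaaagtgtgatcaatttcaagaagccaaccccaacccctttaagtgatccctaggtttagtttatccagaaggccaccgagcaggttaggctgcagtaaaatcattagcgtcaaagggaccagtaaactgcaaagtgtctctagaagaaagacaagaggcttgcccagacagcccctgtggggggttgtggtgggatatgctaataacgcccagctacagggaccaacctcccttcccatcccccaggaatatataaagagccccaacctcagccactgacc
The Myog promoter (chr1:134289754-134290053, plus strand) held 2 E-boxes, that of Chrna1 (chr2:73580289-73580588, minus strand) and that of Chrng (chr1:87205561-87205860, plus strand) held 3 each, of which 2 each were CAGCTG, and that of Myf5 (chr10:107486085-107486384, minus strand) held 0. The Myf5 window is set by a start that lies 793 bases inside the gene as annotated. Of the windows not printed, that of Chrnb1 held 3 E-boxes and 0 CAGCTG, that of Chrne held 1, a CAGCTG, that of Pax7 held 0, and the 3 of Mef2c held 2, 0 and 1. Among 32851 mouse promoters of this length, 72.3% held at least 1 CANNTG, 39.6% at least 2 and 17.6% at least 3, and 1.9% held at least 2 CAGCTG. The MEF2 consensus, searched on both strands as YTAWWWWTAR (Y is C or T, W is A or T, R is A or G), was found in 0 of these 4 windows and in 3.19% of all promoters. The Myog window holds ctatatttat, which differs from this pattern in the last base only, so the 0 counts exact matches. A match is a run of letters and was not tested as a binding site.

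Among 17 tested genes of 20 linked to satellite cells, 15 had a positive log2 fold change (median 1.12) and 5 rose by edgeR, where 1.24% of all genes did. They were Itga7, the laminin receptor of muscle cells (2.10, adjusted p = 0.0191), Asb5 (2.96, adjusted p = 0.0196), the adhesion protein gene Vcam1 (1.12, adjusted p = 0.0381), the syndecan gene Sdc4 (0.99, adjusted p = 0.0418) and Six4, a homeobox factor upstream of the myogenic factors (1.09, adjusted p = 0.0499). Itga7 stood at 17.7, 38.1, 29.2 and 44.8 CPM in KP 5, 6, 7 and 8, against 156, 122 and 139 CPM in KPH2 2, 3 and 4, and at 6.47 CPM in KPH2 1. Six4 was the 1 gene of the 17 whose groups stayed apart over all 8 tumours, with KPH2 1 at 67.9 CPM above the KP maximum of 53.3 CPM, a share near the 3.76% of all genes. DESeq2 called 9 of the 17 (against 4.02% of all genes in that direction). Without KPH2 2, 0 passed by edgeR, and without KP 7, 1. With KPH2 1 included, 0 of the 17 passed by edgeR, 3 passed by DESeq2 (1.57% of all genes) and 8 had an unadjusted p under 0.05 (6.65%). With the fibre score as a covariate 0 passed by edgeR over 7 tumours (median 1.15), with 7 at an unadjusted p under 0.05 against 3.3% of all genes. Over 8 tumours 0 passed as well (median 0.48, with 7 of 17 negative), with 2 at an unadjusted p under 0.05 against 4.72%.

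Of 22 tested genes of fusion and early differentiation, 21 had a positive log2 fold change (median 1.43) and 2 rose by edgeR, where 1.24% of all genes did. They were Smyd1, a methyltransferase needed to assemble myofibrils (3.01, adjusted p = 0.0418), and Myl4, the myosin light chain of embryonic muscle (3.63, adjusted p = 0.048). Myl4 was at 3.94, 12.2, 1.48 and 3.02 CPM in KP 5, 6, 7 and 8, against 79.7, 85.2 and 22.8 CPM in KPH2 2, 3 and 4, and at 1.52 CPM in KPH2 1. Like Myf5, Myod1, Myog and Mymk, Myl4 was higher in KP 6 than in the other KP tumours. With the fibre score as a covariate the median of the list was 0.55 over 7 tumours, and 0 genes passed by edgeR, also at an unadjusted p under 0.05. Over 8 tumours it was −0.02, with 12 of 21 genes negative, 0 past the adjusted p and 1, lower, at an unadjusted p under 0.05 (against 6.53% of all genes in that direction). Without KP 6 the number that passed was 6, and without KP 5, KP 7, KP 8, KPH2 2 or KPH2 3 it was 0. DESeq2 called 10 genes higher and 1 lower over 7 tumours, against 4.02% and 3.91% of all genes. Over all 8 tumours 0 passed by edgeR, with 9 higher and 1 lower at an unadjusted p under 0.05 against 6.65% and 8.02%. By DESeq2 2 passed, among 610 genes in all, and they went opposite ways. Smyd1 rose (DESeq2 adjusted p = 0.0231, against 1.57% of all genes in that direction) and Adgrb3 fell (DESeq2 adjusted p = 0.0178).

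The partners and inhibitors of the factors did not share a direction. Of 18 tested genes, 8 were positive and 10 negative (median −0.18), and 1 fell by edgeR, where 0.72% of all genes did. It was Twist2, a repressor of Myod1 (log2 fold change −3.03, SE 0.46, adjusted p = 0.0236). DESeq2 called 3 genes higher and 2 lower, against 4.02% and 3.91% of all genes. Twist2 stood at 9.21, 7.22, 4.30 and 13.9 CPM in KP 5, 6, 7 and 8, against 1.08, 1.30 and 0.789 CPM in KPH2 2, 3 and 4. KPH2 1, at 16.5 CPM, was the highest of the 8 tumours, and with it the log2 fold change was −0.80 (adjusted p = 0.739). Without KPH2 2 or KPH2 4, Twist2 no longer passed, and with the fibre score as a covariate 0 of the 18 passed by edgeR, with 1 higher and 3 lower at an unadjusted p under 0.05 against 3.3% and 4.21% of all genes. Zeb1, a repressor that binds E-box-like sites, had a log2 fold change of −0.74 (edgeR adjusted p = 0.0618), and KPH2 1 at 157 CPM lay with the other KPH2 tumours (141 ± 18.7 CPM, SD, n = 3, against 236 ± 30.6 CPM, n = 4). By DESeq2 Zeb1 passed over 7 tumours (adjusted p = 0.00228) and over 8 (0.00186).

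Markers of other cells that a section can hold were counted as well. Of 10 endothelial genes 9 were negative (median −0.56) and 0 passed by edgeR, the smallest p being those of Kdr (−0.72, adjusted p = 0.0818) and Esam (−0.86, adjusted p = 0.118). By DESeq2, Kdr, Esam and Pecam1 fell (adjusted p = 0.0119, 0.0297 and 0.0313), where 3.91% of all genes did. Of 10 macrophage genes 10 were negative (median −0.58) and 0 passed by edgeR (Mrc1 −1.53, adjusted p = 0.0951, and Cd163 −1.13, adjusted p = 0.183), whereas both named genes fell by DESeq2 (adjusted p = 0.00192 and 0.0482). At an unadjusted p under 0.05 there were 5 genes in each of these lists by edgeR, all lower, against 9.26% of all genes in that direction. Over all 8 tumours there were 8 endothelial and 7 macrophage genes (8.02%). With the fibre score as a covariate over 7 tumours there were 1 and 0 (4.21%), with medians of −0.23 and −0.29. Of 10 mesenchymal genes 8 were negative (median −0.28), and Pdgfra, which marks fibroadipogenic progenitors in muscle, fell (−2.02, adjusted p = 0.0183), with Thy1 at −1.20 (adjusted p = 0.228). Of all genes, 0.72% fell by edgeR. Without KPH2 2, Pdgfra did not pass, nor did it over all 8 tumours (−1.54, edgeR adjusted p = 0.16, DESeq2 adjusted p = 0.00396) or with the fibre score as a covariate (−2.37, edgeR adjusted p = 0.263). The mesenchymal genes summed to 18300 to 43000 CPM in KP, 22100 to 30900 CPM in KPH2 2 to 4 and 28300 CPM in KPH2 1.

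Of 8 tested Schwann cell genes of 10, 5 were positive (median 0.31). Erbb3, the neuregulin receptor, had a log2 fold change of 2.26 (edgeR adjusted p = 0.0523). The Schwann cell genes summed to 86.3 to 129 CPM in KP, 83.3 to 88.9 CPM in KPH2 2 to 4 and 72.5 CPM in KPH2 1, with Foxd3 at 0 in 5 tumours and Sox10 at 0 in KP 7. The part of these cell types in the levels of the 9 genes was not tested.

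To ask which genes varied most like each of the 7, log2 CPM was centred on its mean over the 8 tumours and the root-mean-square difference was taken, in log2 units. Nearest to Myf5 were Cdh15 (0.79), the cadherin of satellite cells and myoblasts, Bves (0.81) and Reln (0.83), with a median of 3.15 over all genes. Cdh15 stood at 0.668, 8.49, 0.148 and 0.528 CPM in KP 5, 6, 7 and 8, against 33.5, 77.1 and 34.0 CPM in KPH2 2, 3 and 4, and at 0.0799 CPM in KPH2 1. Reln, the gene for reelin, was at 461, 467 and 493 CPM in KPH2 2, 3 and 4, at 9.04 to 29.9 CPM in KP tumours and at 5.19 CPM in KPH2 1, and was more even among the 3 KPH2 tumours than Myf5.

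Myod1 and Mymk were each other's nearest genes (0.36), and Chrng was among the 3 nearest of both (0.48 and 0.52), beside Trim55 (0.43), a ring-finger protein of the sarcomere, for Myod1 and Bves (0.54) for Mymk. Myog was nearest to Tnni1 (0.53), the troponin I of slow fibres, Trim55 (0.56) and Myod1 (0.64). Myf6 was nearest to Sv2b (0.31), Fbxo32 (0.33), the atrophy ligase atrogin-1, and Ip6k3 (0.36), none of which was among the 3 nearest genes of Myf5, Myod1 or Myog. Chrna1 lay nearest to Wdr63, Dnase1l3 and Pthlh (0.32 each), and Mef2c to Slc8a3 (0.18), Polr2l (0.25) and Mapt (0.27). The medians over all genes were 2.53 for Myod1, 2.73 for Mymk, 2.79 for Myog, 1.20 for Myf6, 1.04 for Chrna1 and 0.65 for Mef2c.

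The 9 genes lie at these places in GRCm38.p6. Myf5 is at chr10:107482908-107486927 and Myf6 at chr10:107492848-107494723, both on the minus strand, Myod1 at chr7:46376474-46379092 and Myog at chr1:134290004-134292548, both on the plus strand. Mymk is at chr2:27061636-27072161, Chrna1 at chr2:73563281-73580338, Pax3 at chr1:78101267-78197136 and Pax7 at chr4:139737059-139833530, all on the minus strand, and Mef2c at chr13:83504017-83667079 on the plus strand. No other annotated gene of GENCODE M21 overlaps any of the 9, so their counts are not shared with an antisense gene of that annotation.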

How the data were processed

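RNA from formalin-fixed, paraffin-embedded tumour sections was sequenced after ribosomal depletion, from libraries of a stranded kit. The authors aligned single-end reads to GRCm38 with STAR 2.4 and deposited raw counts per RefSeq gene from htseq-count (HTSeq 0.6.1). CASAVA 1.8.2 and DESeq2 1.6 also stand in the submitters' processing notes. The authors deposited log2 values as well, from the rlog transformation of DESeq2, which shrinks low genes and was used here as an alternative scale for levels.

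Counts were tested in R 4.3.3 with edgeR 4.0.16 (TMM, minimum count 10, minimum total count 15, robust quasi-likelihood test) over KP 5 to 8 and KPH2 2 to 4, without covariates. P-values were adjusted by Benjamini-Hochberg over the 14867 genes tested (14805 with all 8 tumours). Levels are TMM CPM over 8 tumours, and log2 CPM used a prior count of 2. Exon lengths per gene came from GENCODE M21 and positions from RefSeq.

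The 9 genes and the gene lists were chosen with earlier results of these data known. In each list the genes past the threshold were named (at most 4 by p, or the 2 with the smallest p where fewer than 2 passed), with the receptor subunits and the 3 most similar genes of each member. Six4, Mymx, Pecam1, Adgrb3, Calcr, Chrdl2, Barx2, Cd34 and Cxcr4 were named outside this rule. An allele that both groups carry and a further gene set by the rule are not reported here.

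Alternatives were all 8 tumours, DESeq2 1.42.0 as test or for size factors, no filter, no robust estimates, the fibre score as covariate, each tumour left out, and for levels a prior count of 0.5 or the rlog values. DESeq2 and the unfiltered fit over all 8 tumours were added after seeing the data. The scripts were tested on simulated counts.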

Additional observations from a re-analysis of the deposited data

Results flagged for a closer look

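Each group of 4 tumours was examined for a tumour far from the other 3, by the gap to the nearest tumour divided by the range of the group, with 0.829 as the critical value. Over 18 groups (9 genes in KP and in KPH2, KPH2 1 included), 6 exceeded it. The cutoff flags about 1 in 20 groups when values are normally distributed, which CPM near the floor are not. The genes were also measured in the same tumours, so the 6 cannot be set against that rate. KP 6 stood above the other KP tumours for Pax7 (0.945), Myf5 (0.938) and Mymk (0.902), with 19, 17 and 44 counts. KPH2 3 stood above the other KPH2 tumours for Pax7 (0.912, 41 counts) and KPH2 4 for Pax3 (0.939, 13 counts). The value of 1 for Pax3 in KP 7 rests on a single count against 0 in the other KP tumours.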

How the results depend on the processing

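Of the 7 genes tested, 2 passed by edgeR in the reported fit. Over all 8 tumours 0 passed, and without the low-count filter 1 (Myf6) passed over 7 tumours and 0 over 8. DESeq2 called 4 over 7 tumours and 1 over 8, and the fibre score as covariate left 0 with either set. Leaving out each tumour gave 0 to 3. Over all genes the 292 calls became 1 with 8 tumours, 11 with 8 tumours and no filter, 1179 and 610 by DESeq2 over 7 and 8 tumours, 3 and 0 with the fibre score over 7 and 8, and 55 (without KPH2 2) to 349 (without KP 5) with a tumour left out. DESeq2's size factors and fits without robust estimates kept 2 calls among the 7 genes. Directions held for Myf5, Myod1, Myog, Myf6 and Mymk in all 16 alternatives. They reversed, far from the threshold, for Mef2c with the fibre score (−0.65 over 7 and −0.41 over 8 tumours) and for Chrna1 with it over 8 (−0.19), and the cause was not tested. The adjusted p ran from 0.00729 to 0.598 for Myf5 (under 0.05 in 4 of 16) and from 3.11e-06 to 0.468 for Myf6 (9 of 16). On the authors' rlog scale over 7 tumours the difference of group means was 2.65 for Myf5 and 1.03 for Myf6, against 5.72 and 2.38 in log2 CPM. KP tumours held few reads of Myf5, Myod1 and Mymk, and Pax3 and Pax7 were at the limit of depth. No paired analysis was possible because KP and KPH2 tumours share no replicate number.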
